A study of Caenorhabditis elegans with 15 samples.

Results

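Genes of the Notch pathway and its REF-1 family of target genes were followed, 10 in all, in early C. elegans embryos. They are the receptor gene glp-1, the ligand genes apx-1 and lag-2, the nuclear factor gene lag-1, and the REF-1 family genes ref-1, hlh-25, hlh-26, hlh-27, hlh-28 and hlh-29. A gene was measured by the probe set whose annotation gave its symbol alone, and by the brightest one, by its mean over all arrays, where there were several. Of the 10 genes, 6 had such a probe set (glp-1, apx-1, lag-2, lag-1, ref-1 and hlh-26), out of 17138 genes measured in this way on the array. The other 4 were on the array only as pairs: hlh-25 and hlh-27 shared 1 probe set, and hlh-28 and hlh-29 shared another, so each of these signals belongs to a pair and not to a gene. With the second probe sets of apx-1 and lag-1, this gave 10 signals among 22548 probe sets tested.

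The embryos were collected at 0, 1, 2, 3 and 4 h of incubation at room temperature, counted from dissection of 2- to 4-cell embryos, with 3 Affymetrix arrays per time. All of them, the 0 h embryos included, came from wild-type N2 mothers injected with dsRNA for RNA interference, which lowers matching transcripts, of 3 genes: mex-1, lit-1 and pal-1. No embryos without this treatment were analysed here, so the course describes triple-knockdown embryos and not the effect of the knockdown. Arrays are called A, B and C within a time, and values are log2 expression values, on which a difference of 1 is a doubling. Since the labels name no separate mothers or days for the samples of a time, the p-values reflect only how these samples vary, and that variation may be technical.

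Notch signalling passes between touching cells: a ligand on 1 cell binds a receptor on its neighbour, proteases cut the receptor, and its inner part enters the nucleus, where it joins the DNA-binding protein LAG-1 and switches target genes on. In the early C. elegans embryo the receptor GLP-1 is made from maternal mRNA in descendants of the anterior blastomere AB. APX-1, also maternal, signals to an AB daughter from the neighbouring germline precursor P2, and later interactions use other ligands, LAG-2 among them. REF-1 family genes encode transcription factors with basic helix-loop-helix domains, distantly related to the Hairy and Enhancer of split factors, and are switched on by Notch in AB descendants. As background to the treatment, loss of the maternal protein MEX-1 gives AB descendants the fate of the blastomere MS, itself a source of a Notch signal.

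The arrays carried the marks of embryos turning from maternal to zygotic transcripts. The mean log2 level of 5 maternal marker genes was 4.19 to 4.46 at 4 h, against 8.98 to 9.89 at 0 h, and that of 8 zygotic marker genes was 4.87 to 5.57 at 1 h, against 3.35 to 3.45 at 0 h. Titles set the time of each array here, but the time tag reads 2 h on array 1 h B and 3 h on array 1 h C. Array 1 h B stood apart: it correlated at 0.914 and 0.915 with the other 1 h arrays, which correlated with each other at 0.981, and its mean over 5 yolk protein genes of the adult gut was 6.90, against 3.11 to 4.47 on the other 14 arrays. Sperm transcripts also moved at 1 h: 9 of 20 major sperm protein genes measured were called higher than at 0 h, beside 3.3% of all probe sets, all 20 differences were positive, and their mean level was 4.28 to 5.19 at 1 h and 3.72 to 4.00 at 0 h. Their part in the results below was not tested. The injected genes measured 3.50 to 7.04 (mex-1), 3.70 to 4.59 (lit-1) and 5.09 to 9.19 (pal-1) over the 15 arrays, and limma called 0 of the 3 in any of the 6 comparisons, with up to 3 at an unadjusted p under 0.05.

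REF-1 family transcripts appeared as a short pulse at 1 h. Of the family's 4 signals, 3 were higher at 1 h than at 0 h and lower at 2 h than at 1 h: ref-1, the hlh-25 and hlh-27 pair, and the hlh-28 and hlh-29 pair. In the background, limma called 9.38% of all probe sets at 1 h against 0 h and 9.26% at 2 h against 1 h, in either direction. It called 3.3% higher in the first and 3.25% lower in the second, and 0.732% showed this rise and fall together. Both comparisons use the same 1 h arrays. No REF-1 family signal was called in any other comparison, and 0 of 4 reached an unadjusted p under 0.05 there by limma. Beside this, 2.73% of all probe sets were called at 3 h against 2 h and 1.26% at 4 h against 3 h. At 2 h and at 4 h against 0 h, 15.8% and 16.7% were called, so 0 of 4 is near the share of all probe sets.

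The shared hlh-25 and hlh-27 probe set (184961_s_at) was near background at every time but 1 h. It read 3.15, 3.26 and 3.14 at 0 h, 5.13, 5.71 and 6.39 at 1 h, 3.18, 2.90 and 2.56 at 2 h, 2.87, 3.01 and 3.17 at 3 h, and 2.79, 3.04 and 3.03 at 4 h. All 3 arrays at 1 h lay above all 12 others, which lay at or under 3.26, where 3.22 is the highest value of 15 bacterial control probe sets and the background mark used here. The signal was higher by 2.56 ± 0.25 (SE) at 1 h than at 0 h (5.9-fold, adjusted p = 2.5e-05) and fell by 2.87 ± 0.25 at 2 h relative to 1 h (7.3-fold, adjusted p = 1.1e-05). With the other times at background, the size of these folds is uncertain. In the WBcel235 annotation hlh-25 lies next to hlh-26, and 1 protein-coding gene separates it from hlh-27.

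The shared hlh-28 and hlh-29 probe set (179991_s_at) was likewise above background at 1 h alone. Its values were 2.57, 2.52 and 2.43 at 0 h, 4.04, 4.76 and 3.39 at 1 h, 2.44, 2.62 and 2.55 at 2 h, 2.52, 2.46 and 2.46 at 3 h, and 2.39, 2.50 and 2.58 at 4 h. Only the 3 arrays at 1 h exceeded the background mark of 3.22, with the highest value on the array that stood apart, 1 h B. The signal was higher by 1.56 ± 0.24 (SE) at 1 h than at 0 h (adjusted p = 0.00097) and fell by 1.53 ± 0.24 at 2 h relative to 1 h (adjusted p = 0.0011). Neither was called when only the arrays of the 2 times compared entered the fit (adjusted p = 0.069 and 0.058). hlh-28 and hlh-29 are neighbouring genes, with no other protein-coding gene between them.

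ref-1, the founding member of the family, was above the background mark on all 15 arrays, unlike the pairs. It (193898_at) read 4.39, 4.77 and 4.68 at 0 h, 6.82, 5.83 and 6.90 at 1 h, 4.69, 3.95 and 4.11 at 2 h, 4.10, 5.56 and 3.60 at 3 h, and 4.24, 4.09 and 5.19 at 4 h. The 1 h arrays were the 3 highest of the 15, although 3 h B (5.56) came close to 1 h B (5.83). ref-1 was higher by 1.90 ± 0.46 (SE) at 1 h than at 0 h (3.74-fold, adjusted p = 0.021) and fell by 2.27 ± 0.46 at 2 h relative to 1 h (4.81-fold, adjusted p = 0.007). Below the 1 h mean the order of the time means was 0, 4, 3 and 2 h, and the arrays of neighbouring times in that order overlapped. The rise was not called without 0 h A (1.79, adjusted p = 0.062), 0 h C (1.94, 0.061), 1 h A (1.75, 0.071) or 1 h C (1.71, 0.064), while the fall was called in each of those cases.

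hlh-26 was called in no comparison. Its own probe set (183674_at) read 3.29, 3.25 and 3.17 at 0 h, 3.25, 3.25 and 3.53 at 1 h, 3.17, 3.04 and 3.16 at 2 h, 3.80, 3.34 and 3.09 at 3 h, and 3.25, 3.19 and 3.30 at 4 h. These values lay around the background mark, which 9 of the 15 arrays exceeded, and the time means spanned 0.29. The 1 h minus 0 h difference was 0.11, with a 95% interval of -0.23 to 0.44. With the signal at background throughout, these values do not show whether hlh-26 transcript changed.

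**Figure D1:**
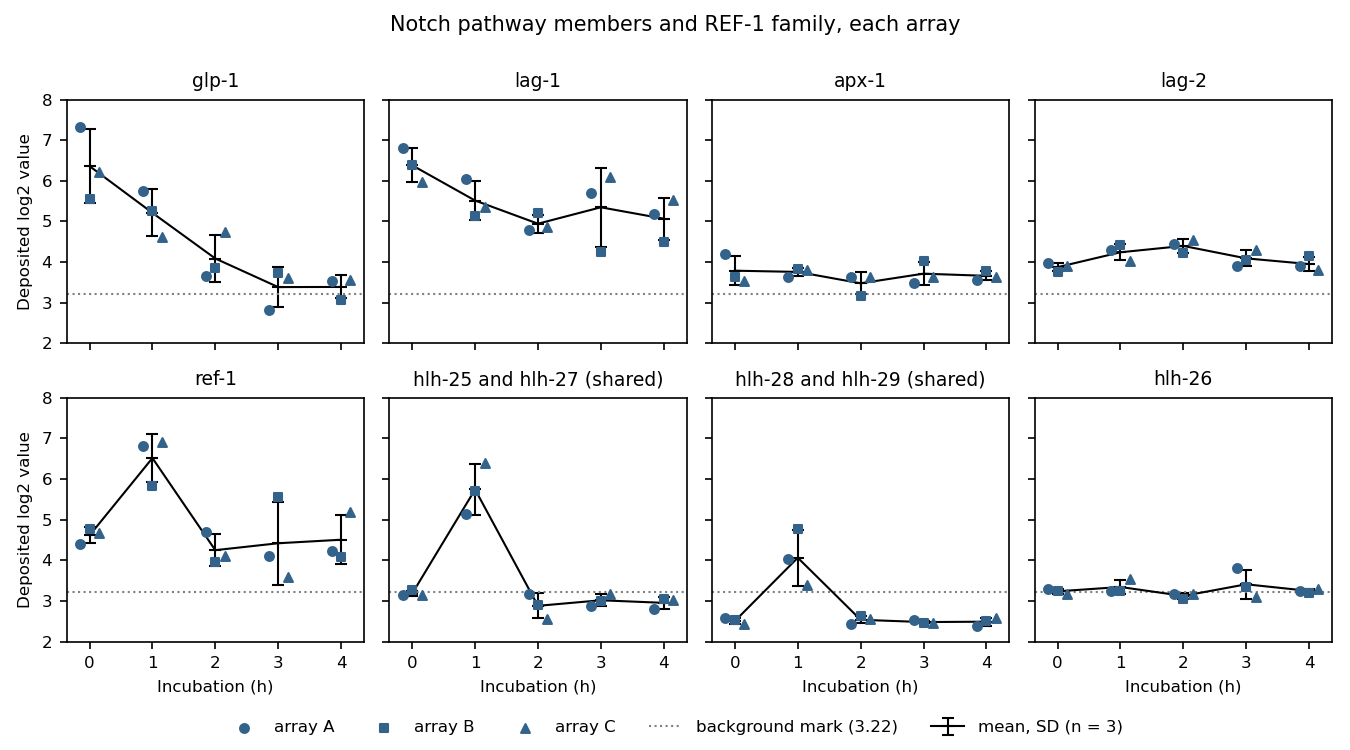
Deposited log2 value (y axis) against hours of incubation (x axis) for the 8 main signals, with 1 point per array (circles A, squares B, triangles C), the line and bars giving mean and SD of 3 arrays, and the dotted line the background mark of 3.22. The glp-1 values step down over 3 h, and ref-1 and the 2 shared REF-1 signals are high at 1 h alone.

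The pulse rests on the 1 h arrays, and 2 of these have conflicting labels. On array 1 h C, tagged 3 h, the maternal marker mean was 7.84, beside 8.18 on 1 h A and 4.34 to 4.47 on the 3 h arrays. Grouping by tags thus joins 1 h C to arrays with a much lower maternal level. On array 1 h B, tagged 2 h, that mean was 5.84, beside 4.88 to 5.33 on the 2 h arrays. Array 1 h A, whose title and tag both say 1 h, alone held 6.82 for ref-1, 5.13 for hlh-25 and hlh-27, and 4.04 for hlh-28 and hlh-29, each above every 0 h and 2 h array. With 1 h B and 1 h C left out, the rises were 2.20 for ref-1, 1.95 for hlh-25 and hlh-27, and 1.54 for hlh-28 and hlh-29. In that fit 1 h A, the 1 array left at 1 h, was assumed to vary like the arrays of the other times. The SD of hlh-28 and hlh-29 was 0.68 at 1 h but 0.03 to 0.09 at the other times. The p-values of that fit therefore cannot decide whether the shared signals kept their rise. With the arrays placed by their tags the rises were 2.20, 1.95 and 1.54 for ref-1 and the 2 pairs, and none was called (adjusted p = 0.55, 0.81 and 0.52). Without 1 h B alone the 3 rises were 2.25, 2.58 and 1.21 and all were called. Centring arrays on the hybridisation controls, whose mean was 8.64 to 11.70 per array, put the median difference of all probe sets at -1.10 at 1 h against 0 h, beside 0.08 as deposited, and the rises became 0.72, 1.38 and 0.38, none called.

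**Figure D2:**
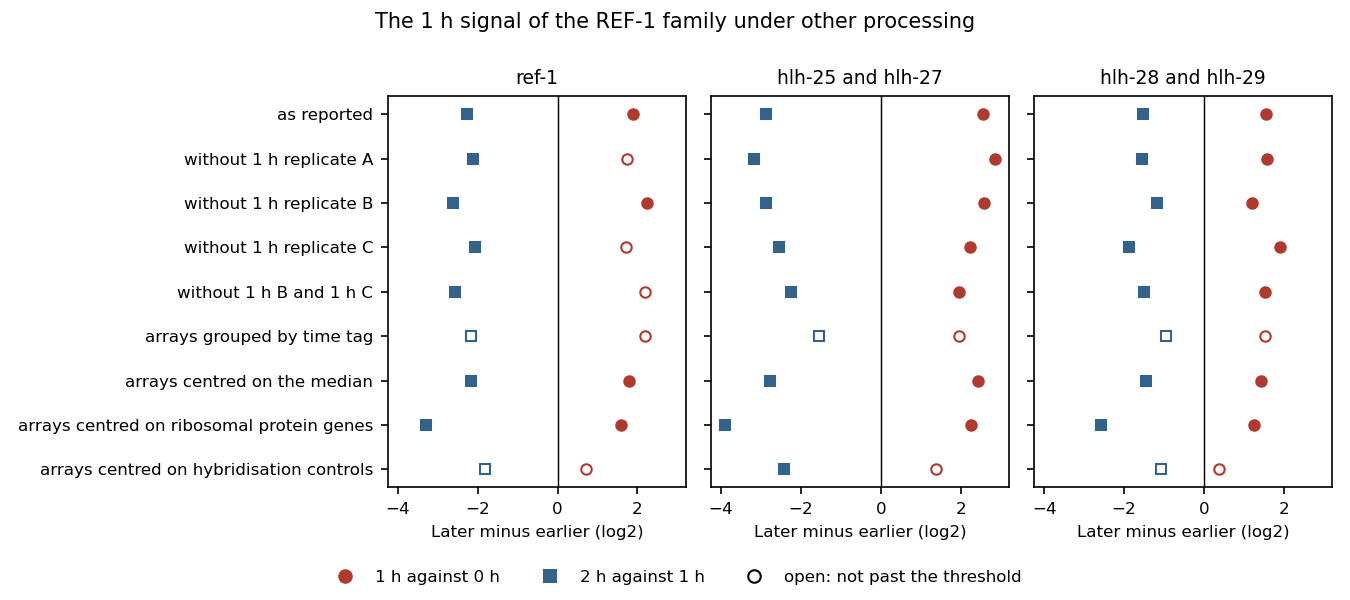
Difference on the log2 scale (x axis) for ref-1 and the 2 shared REF-1 signals, at 1 h against 0 h (red circles) and 2 h against 1 h (blue squares), under the reported and 8 other settings (y axis), filled where adjusted p was under 0.05. All rises lie right of 0 and all falls left of 0, and both are open for all 3 signals where arrays are grouped by time tag.

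The receptor and nuclear factor transcripts were lower by 2 h. The ligand signals, of which apx-1 lay close to background, differed by at most 0.52 at 2 h or 4 h against 0 h. Among the 4 members outside the REF-1 family, limma called 1 higher (lag-2) and 2 lower (glp-1 and lag-1) at 2 h against 0 h, where 15.8% of all probe sets were called, and 1 lower (glp-1) at 4 h against 0 h, where 16.7% were. In the first 2 steps, 1 h against 0 h and 2 h against 1 h, 0 of these 4 were called, with 2 and 1 at an unadjusted p under 0.05. The median difference of these 4 was -0.87 at 2 h against 0 h and -0.72 at 4 h against 0 h, beside 0.02 and 0.09 over all probe sets. Because whole embryos were measured, fewer cells with a transcript and less transcript per cell cannot be told apart. The comparison of 2 h with 0 h uses none of the arrays with conflicting labels.

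glp-1 (191458_s_at), which encodes the maternal Notch receptor, had the largest fall of the 10 genes over the course. It read 7.33, 5.54 and 6.21 at 0 h, 5.76, 5.26 and 4.61 at 1 h, 3.66, 3.86 and 4.74 at 2 h, 2.82, 3.73 and 3.60 at 3 h, and 3.54, 3.06 and 3.56 at 4 h. Neighbouring times overlapped at every step, but all 0 h arrays lay above all arrays from 2 h on. glp-1 fell by 2.27 ± 0.45 (SE) at 2 h relative to 0 h (4.83-fold, adjusted p = 0.003) and by 2.97 ± 0.45 at 4 h relative to 0 h (7.85-fold, adjusted p = 0.00039). The steps between them were -1.15 at 1 h against 0 h, -1.12 at 2 h against 1 h, -0.70 at 3 h against 2 h and 0.00 at 4 h against 3 h, and no single step was called (adjusted p = 0.15, 0.17, 0.72 and 1). The means at 3 h and 4 h, 3.38 ± 0.49 and 3.39 ± 0.28 (SD, n = 3), were close to the background mark. Both falls were called in all 24 alternatives run.

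lag-1 (175617_at), which encodes the DNA-binding protein that takes Notch to its targets, fell less, and its 3 h arrays were widely spread. Its values were 6.80, 6.38 and 5.96 at 0 h, 6.05, 5.14 and 5.35 at 1 h, 4.78, 5.20 and 4.85 at 2 h, 5.70, 4.25 and 6.09 at 3 h, and 5.18, 4.50 and 5.52 at 4 h. The 0 h arrays lay above those of 2 h and 4 h, while 3 h C (6.09) overlapped them. lag-1 fell by 1.44 ± 0.43 (SE) at 2 h relative to 0 h (adjusted p = 0.038), and at 4 h against 0 h the difference was -1.32 ± 0.43 (adjusted p = 0.056). Leaving out any of 0 h A, 0 h B, 4 h A or a 2 h array ended the 2 h call (-1.57 to -1.23, adjusted p = 0.052 to 0.13). The dimmer lag-1 probe set (192000_s_at), which spanned 2.48 to 4.66, gave -0.62 at 2 h against 0 h and -0.93 at 4 h against 0 h, neither called.

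Of the ligand genes, lag-2 was called in 1 comparison and apx-1 in none. lag-2 (189183_at), a DSL ligand used in later embryonic and germline signalling, read 3.97, 3.76 and 3.89 at 0 h, 4.29, 4.41 and 4.02 at 1 h, 4.44, 4.21 and 4.54 at 2 h, 3.91, 4.06 and 4.30 at 3 h, and 3.91, 4.14 and 3.80 at 4 h. All 2 h arrays lay above all 0 h arrays, and lag-2 was higher by 0.52 ± 0.15 (SE) at 2 h (1.44-fold, adjusted p = 0.026). That call ended without 0 h B, 0 h C, 2 h A or 2 h C (0.45 to 0.53, adjusted p = 0.068 to 0.11), and its direction turned with arrays centred on ribosomal protein genes (-0.81) or on hybridisation controls (-0.21). The maternal ligand gene apx-1 (188062_s_at) read 4.19, 3.64 and 3.53 at 0 h, 3.64, 3.82 and 3.81 at 1 h, 3.64, 3.16 and 3.63 at 2 h, 3.48, 4.02 and 3.64 at 3 h, and 3.56, 3.78 and 3.64 at 4 h. Its times overlapped throughout, and the 4 h minus 0 h difference was -0.13, with a 95% interval of -0.55 to 0.29. The dimmer apx-1 probe set (175612_at) stayed between 2.92 and 3.67, and lag-2 and apx-1 lie near each other, with 6 protein-coding genes between them.

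No gene of the 6 passed the test in the steps after 2 h. At 3 h against 2 h, where 2.73% of all probe sets were called, and at 4 h against 3 h, where 1.26% were, limma called 0 of the 6 genes with a probe set of their own, and 0 at an unadjusted p under 0.05. The 3 h ref-1 and lag-1 arrays were the most spread of the course, with SDs of 1.02 and 0.97.

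**Figure D3:**
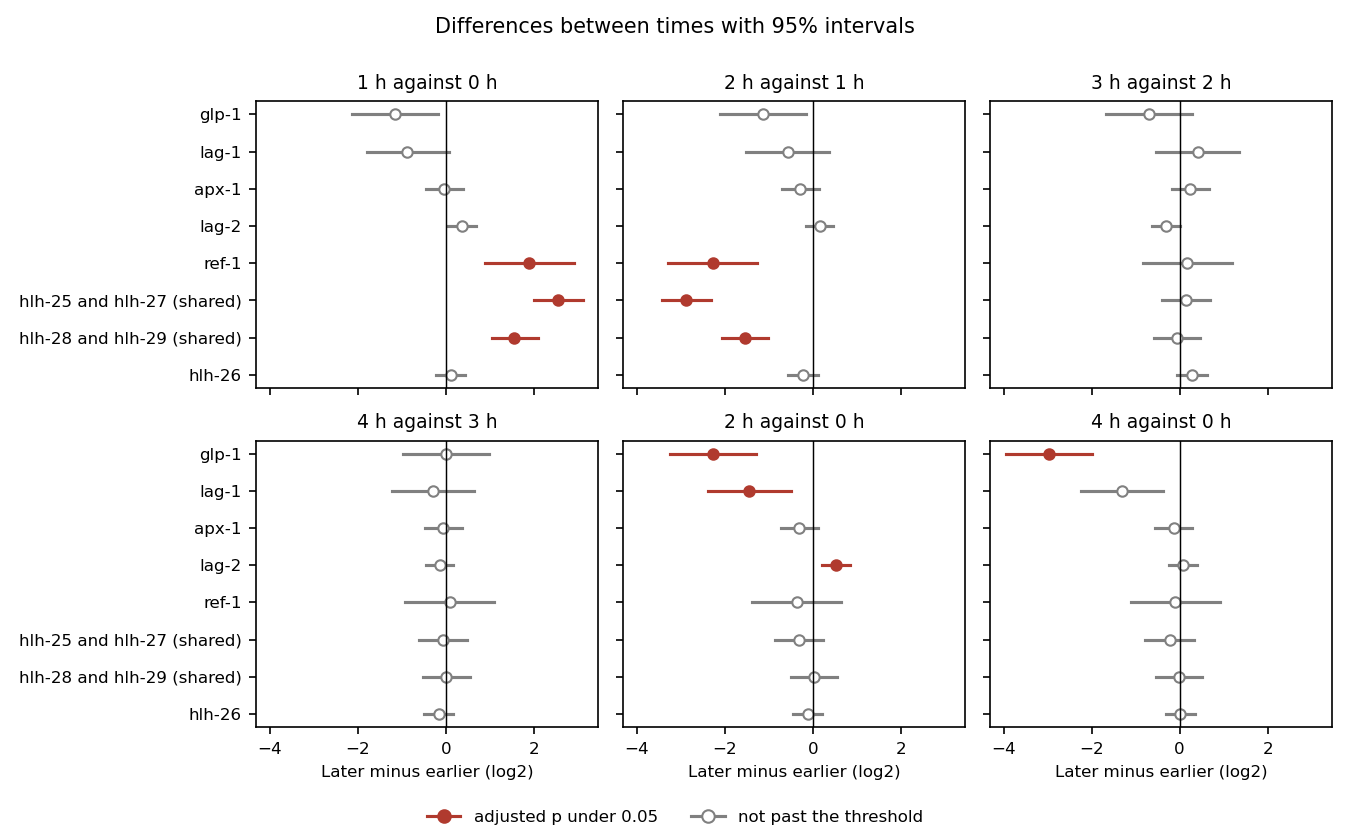
Later minus earlier log2 difference (x axis) with its 95% interval for the 8 main signals (y axis) in the 6 comparisons, red and filled where adjusted p was under 0.05 over all probe sets. The 3 REF-1 signals are red in the first 2 panels alone, and glp-1 is red in the last 2.

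Among the other genes of the pathway, the ligand genes dsl-1 and dsl-2 changed most. A list of 31 further core genes (receptor, ligands, co-ligands, proteases, co-activator and receptor regulators) had 29 measured, of which 9 were called in at least 1 of the 6 comparisons and 20 in none. Of these 29, limma called 2 higher and 1 lower at 1 h against 0 h and again at 2 h against 1 h, 2 higher and 2 lower at 3 h against 2 h, and 0 higher and 2 lower at 4 h against 3 h. The calls of these 4 steps stood beside 9.38%, 9.26%, 2.73% and 1.26% of all probe sets, and 3 of 29 is near that share in the first 2. Over the longer intervals it called 3 higher and 3 lower at 2 h against 0 h, and 4 higher and 2 lower at 4 h against 0 h, beside 15.8% and 16.7% of all probe sets. dsl-1, a secreted DSL ligand that acts with the receptor LIN-12 in vulval development, read 3.89, 3.61 and 2.74 at 0 h, 9.17, 9.55 and 9.64 at 1 h, a mean of 11.25 ± 0.22 (SD) and up to 11.43 at 2 h, 7.80, 9.50 and 8.84 at 3 h, and 5.42, 5.45 and 5.36 at 4 h. It was higher by 6.04 ± 0.37 (SE) at 1 h than at 0 h (65.7-fold, adjusted p = 3e-07), by 1.80 at 2 h than at 1 h, and fell by 2.53 and 3.30 in the next steps, all 4 called. The 0 h arrays lay around the background mark, so the size of that fold is uncertain. Without 1 h B and 1 h C the step at 2 h against 1 h was 2.08, and 3 of 24 alternatives ended the call of this step (adjusted p up to 0.83). Its neighbour dsl-2 had the same course, with means of 4.67, 10.16, 11.82, 8.82 and 5.91 at 0 to 4 h and a difference of 7.15 ± 0.30 at 2 h against 0 h (adjusted p = 5.6e-09). The dsl-2 step of 1.66 at 2 h against 1 h was called, and 3 of 24 alternatives ended that call. Both dsl-1 and dsl-2 were still above 0 h at 4 h, by 2.00 and 1.25, and the dsl-2 difference was not called without 4 h B (0.97, adjusted p = 0.056) and was 0.29 with centring on hybridisation controls and -0.08 when arrays were centred on ribosomal protein genes.

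The third ligand gene of this group came later. dsl-3 read 3.90, 3.32 and 3.30 at 0 h, 2.99, 2.99 and 3.20 at 1 h, 4.60, 3.81 and 3.49 at 2 h, 5.45, 5.61 and 7.24 at 3 h, and 7.83, 6.12 and 7.33 at 4 h. All 3 h and 4 h arrays lay above all earlier ones, and dsl-3 was higher by 3.59 ± 0.50 (SE) at 4 h than at 0 h (12-fold, adjusted p = 0.00019). Its step of 2.13 at 3 h against 2 h was called (adjusted p = 0.039), but 14 of 24 alternatives ended that call, among them leaving out 2 h B, 2 h C, 3 h B or 3 h C (1.56 to 2.37, adjusted p = 0.056 to 0.17). The other 4 measured DSL genes, arg-1, dsl-4, dsl-5 and dsl-6, and all 5 co-ligand genes (osm-7, osm-11, dos-1, dos-2 and dos-3) were called in none of the 6 comparisons. The second Notch receptor gene, lin-12, read 3.69, 3.41 and 3.67 at 0 h, 4.05, 5.88 and 4.26 at 1 h, 5.54, 6.00 and 6.34 at 2 h, 3.49, 4.14 and 4.12 at 3 h, and 5.37, 4.06 and 3.43 at 4 h. It was higher by 2.37 ± 0.51 at 2 h than at 0 h (5.18-fold, adjusted p = 0.0051), and that call ended with centring on ribosomal protein genes (1.03, adjusted p = 0.057) or on hybridisation controls (1.64, adjusted p = 0.14).

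**Figure D4:**
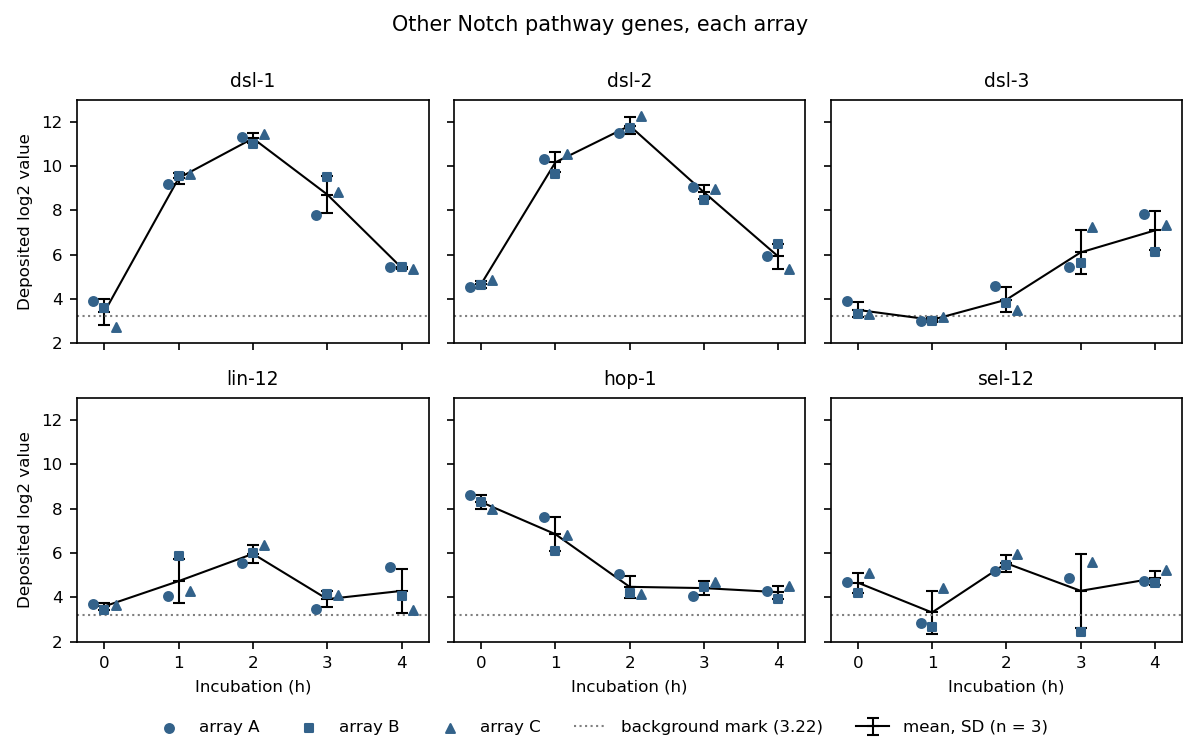
Deposited log2 value (y axis) against hours of incubation (x axis) for 6 other pathway genes, 1 point per array (circles A, squares B, triangles C), with mean and SD of 3 arrays and the background mark of 3.22 as a dotted line. dsl-1 and dsl-2 peak at 2 h, dsl-3 is highest at 4 h, and hop-1 drops over the first 2 h.

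Of the 2 presenilin genes, which encode the catalytic part of the gamma-secretase that cuts the receptor, hop-1 fell. hop-1 read 8.62, 8.28 and 7.99 at 0 h, 7.62, 6.09 and 6.83 at 1 h, 5.05, 4.20 and 4.16 at 2 h, 4.07, 4.46 and 4.71 at 3 h, and 4.28, 3.91 and 4.50 at 4 h. It fell by 4.07 ± 0.36 (SE) at 4 h relative to 0 h (16.8-fold, adjusted p = 3.8e-06), and by 3.83 at 2 h relative to 0 h. Its step of -1.46 at 1 h against 0 h was called (adjusted p = 0.021), but not without 0 h A, 0 h B or 1 h B (-1.46 to -1.08, adjusted p = 0.057 to 0.081). sel-12, the other presenilin gene, was called in no comparison, with 0.20 at 4 h against 0 h and a 95% interval of -1.28 to 1.67. Its early steps were larger, at -1.35 at 1 h against 0 h (adjusted p = 0.28) and 2.22 at 2 h against 1 h (adjusted p = 0.064). The 95% interval of the latter was 0.75 to 3.69, and all 2 h arrays lay above all 1 h arrays. Among the other subunit genes, pen-2 fell by 0.78 ± 0.16 at 2 h relative to 0 h (adjusted p = 0.0034) and rose by 1.05 ± 0.16 at 3 h relative to 2 h (adjusted p = 0.0018), and aph-1 and aph-2 were not called.

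The remaining core genes called, adm-4, sel-1 and sel-9, had 1 call each. adm-4, an ADAM protease gene, fell by 0.99 at 2 h relative to 0 h (adjusted p = 0.039), with arrays that overlapped, and 15 of 24 alternatives ended that call. sel-1, an ER quality control gene that lowers receptor activity, fell by 2.13 at 4 h relative to 0 h (adjusted p = 0.031) and was not called without any 1 of the 0 h arrays, 4 h A or 4 h C (-2.30 to -1.89, adjusted p = 0.057 to 0.099). sel-9, which encodes a p24 cargo protein of receptor transport, was higher by 0.72 at 4 h than at 0 h (adjusted p = 0.015), was not called without 0 h A, 0 h C or 4 h B (0.61 to 0.71, adjusted p = 0.05 to 0.067), and turned to -0.61 with centring on ribosomal protein genes and to -0.23 with centring on hybridisation controls. Dimmer probe sets of sel-5 and sel-10 were called lower at 4 h against 0 h (-1.45 and -0.77 for sel-5, -2.03 for sel-10) where the brightest of each gene was not. The same probe sets were already called lower at 1 h against 0 h (-1.38 and -0.68 for sel-5, -1.78 for sel-10). A further dimmer sel-5 probe set gave -0.75 at 4 h against 0 h and was not called.

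Transcripts of RNA-binding proteins that control translation of glp-1 mRNA were also lower at the later times. All 5 measured of this list of 6 were lower at 2 h and at 4 h than at 0 h (median difference -4.71 and -4.83), beside 8.53% and 9.57% of all probe sets called lower. pos-1, a zinc-finger repressor of glp-1 translation in posterior cells, fell by 6.35 ± 0.46 (SE) at 4 h relative to 0 h, and spn-4, which promotes that translation in anterior cells, by 4.83 ± 0.53. The germline repressors puf-5, puf-7 and gld-1 fell by 5.88, 4.40 and 1.69, although a dimmer gld-1 probe set gave -0.42 and was not called. At 1 h pos-1 read 10.90, 9.40 and 10.80, against 11.40, 11.19 and 11.20 at 0 h. spn-4 read 7.25, 5.01 and 7.61 at 1 h, against 9.79, 8.63 and 9.15 at 0 h. The pos-1 drop at 1 h was not called (95% interval of the difference -1.90 to 0.10), and neither was the -1.59 of its dimmer probe set. The spn-4 drop of 2.57 at 1 h was called (adjusted p = 0.0072). Its 95% interval, -3.72 to -1.42, overlapped that of pos-1, and the difference between the genes was not tested. Without 1 h B, the lowest spn-4 array of that time, the difference was -1.76 and still called, and the call ended with arrays grouped by time tag (adjusted p = 0.58) or only the 2 times in the fit (adjusted p = 0.14). In the same embryos all 5 maternal marker genes, which no other list holds, were lower at 2 h than at 0 h, with a median difference of -4.25, against -2.27 for glp-1. At 0 h the markers averaged 8.98 to 9.89 per array and glp-1 averaged 6.36, so glp-1 had less room to fall above the background mark of 3.22. These 2 differences therefore do not show that glp-1 was lost more slowly.

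Of 4 listed genes of the AB lineage, 1 (tbx-39) was called higher at 1 h than at 0 h, beside 3.3% of all probe sets. At 2 h against 0 h 1 (pha-4) was called higher, beside 1635 of all 22548 probe sets. A probe set shared by the T-box genes tbx-39 and tbx-40 (184250_s_at), chosen after its values were seen, read 2.81, 2.70 and 2.95 at 0 h, 4.87, 4.91 and 5.71 at 1 h, and 2.75 to 2.96 on the 9 later arrays. It was higher by 2.34 ± 0.18 (SE) at 1 h than at 0 h (adjusted p = 2.7e-06) and fell by 2.33 ± 0.18 at 2 h relative to 1 h (adjusted p = 3.9e-06). All its arrays outside 1 h were under the background mark, so the size of these differences is uncertain, and both calls ended with arrays grouped by time tag (adjusted p = 0.61 and 0.96) or centred on hybridisation controls (0.15 and 0.099). The probe set of tbx-39 alone gave 0.65 (adjusted p = 0.049) and -0.80 (adjusted p = 0.016), and leaving out 1 array of 14 of the 15 ended the first call (0.43 to 0.66, adjusted p = 0.06 to 0.13). The second call ended without 1 h A, 2 h B or 2 h C (-0.78 to -0.75, adjusted p = 0.058 to 0.069), and the first difference turned to -0.53 with centring on hybridisation controls. The T-box genes tbx-37 and tbx-38, which Notch represses in part of the AB lineage, were called in no comparison, with tbx-38 at 0.95 at 1 h against 0 h (adjusted p = 0.056). The tbx-37 signal exceeded the background mark on 0 of 15 arrays, so its values do not show whether that transcript changed.

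Endoderm genes were listed because ref-1 is also expressed in the endoderm, and 2 of 4 were called higher at 1 h than at 0 h, beside 3.3% of all probe sets. Of these genes end-1, end-3 and elt-2, and also pha-4, belong to the zygotic marker list used above, so they add no separate check. The GATA factor genes end-1 and end-3, which specify the gut founder E, rose by 2.25 ± 0.33 and 1.20 ± 0.22 (SE) at 1 h relative to 0 h (adjusted p = 0.00065 and 0.0034) and fell by 2.12 and 1.21 at 2 h relative to 1 h (adjusted p = 0.001 and 0.0032). With arrays grouped by their time tags neither gene's rise was called (2.05 and 0.92), and with centring on hybridisation controls the rises were 1.07 and 0.02. The later gut regulators elt-2 and elt-7 were called in no comparison. pha-4, the pharynx selector gene that Notch switches on in AB descendants, rose later, by 2.52 ± 0.72 at 2 h relative to 0 h (adjusted p = 0.03). Without 0 h B, 0 h C, 2 h B or 2 h C the pha-4 difference was 2.07 to 2.48 and not called, while its dimmer probe set gave 3.76 ± 0.53 (adjusted p = 0.00023).

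The genes of most similar course to glp-1 fell from 0 h, and those most similar to ref-1 peaked at 1 h, as choosing them by likeness makes likely. Likeness was measured as Pearson's r of log2 values over the 15 arrays, among 4069 genes with a highest time mean of at least 5 and a range of means of at least 1. The arrays share times, so r describes these arrays alone. The 4 nearest to glp-1 were mtm-6 (0.946), daz-1 (0.94), R74.8 (0.925) and W08E12.7 (0.925), of which daz-1 encodes a germline RNA-binding protein and had means of 5.11 at 4 h and 8.94 at 0 h. The 4 nearest to ref-1 were C35D6.4 (0.91), Y75B12A.2 (0.888), sdz-31 (0.881) and Y37E11AL.9 (0.875), and sdz-31 had means of 2.78 at 0 h, 9.26 at 1 h and 3.17 at 2 h. For hlh-26, whose level stayed around background, no gene passed 0.567 (tbg-1). Among the members themselves, r was 0.85 between the 2 shared signals, 0.84 between ref-1 and the hlh-25 and hlh-27 pair, 0.70 between ref-1 and the hlh-28 and hlh-29 pair, and 0.63 between glp-1 and lag-1, against 0.30 between glp-1 and ref-1.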

How the data were processed

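Total RNA was extracted with Trizol and hybridised as biotin-labelled cRNA to 1-colour C. elegans arrays, per the labels' protocols. The table the authors deposited holds log2 values for 22625 probe sets on 15 arrays, summarised with RMA per the submitters' processing notes; its version and a genome build are not given in the sources used here. The values ran from 1.77 to 14.18, with array medians of 3.17 to 3.42. The number of arrays limits the precision, and detection calls were not used here. Symbols came from the platform annotation, updated by Entrez ID for 20701 probe sets: 20810 carried 1 symbol, 843 several and 895 none. The 77 controls were left out of tests.

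Time differences were fitted with limma 3.58.1 in R 4.3.3 (lmFit and eBayes, 5 time groups by title, 15 arrays, no filter on low values), with Benjamini-Hochberg adjustment over 22548 probe sets and a threshold of 0.05. A filter run as an alternative kept probe sets with at least 1 time mean above the background mark of 3.22, and all 10 member signals passed it. The 2 shared REF-1 signals passed through their 1 h mean alone, so the filter is no separate check of their pulse. The background mark is the highest value of 15 bacterial control probe sets, while other controls read up to 5.98, so background differs between probe sets. The code was tested on simulated data.

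The members and gene lists were chosen with earlier results of these data known. The named genes were all 10 members with every probe set of theirs, the listed pathway genes past the threshold in any comparison, and the 4 genes with the most similar course to glp-1, ref-1 and hlh-26. No 2 arrays held identical values. dsl-7, bre-5 and puf-6 had no probe set of their own symbol. The alternatives were the time tags, left-out arrays, 3 other centrings, the filter, 2 times in the fit, a trended robust eBayes and the replicate letter as a block; those for shared probe sets and for other pathway genes were added after seeing the data.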

Additional observations from a re-analysis of the deposited data

How the results depend on the processing

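The glp-1 falls at 2 h and at 4 h against 0 h were called in 24 of 24 alternatives (adjusted p up to 0.032 and 0.0071). Of the 6 genes with a probe set of their own, the number called at 1 h against 0 h was 1, and became 0 with time tags or without both 1 h B and 1 h C and 2 with centring on hybridisation controls (glp-1 and lag-1). At 2 h against 1 h it was 1, and became 0 with time tags or hybridisation controls and 6 with centring on ribosomal protein genes. At 2 h against 0 h it was 3, and 6 with ribosomal protein genes. At 4 h against 0 h it was 1, and became 2 (lag-1 added) with median centring, hybridisation controls, the filter, only the 2 times compared in the fit, and the replicate block, and 6 with ribosomal protein genes. The number of the 8 signals higher at 1 h than at 0 h and lower at 2 h than at 1 h was 3, and 0 with time tags or hybridisation controls; over all probe sets it was 165, against 1 and 36. Leaving out 1 array gave 0 to 1 at 1 h against 0 h, 1 at 2 h against 1 h, 0 at 3 h against 2 h and at 4 h against 3 h, 1 to 3 at 2 h against 0 h, 1 to 2 at 4 h against 0 h, and 2 to 3 pulsed signals. Over all probe sets, calls numbered 2114 at 1 h against 0 h (347 with time tags, 1126 without 1 h B and 1 h C, 1124 with only 2 times), 2087 at 2 h against 1 h (1 with time tags, 1371 without 1 h B and 1 h C, 19272 with ribosomal protein genes, 845 with hybridisation controls), 3558 at 2 h against 0 h (20814 and 2162 with the same centrings) and 3760 at 4 h against 0 h (20830 with ribosomal protein genes). At 3 h against 2 h they numbered 615 (8 with time tags, 253 with hybridisation controls), and at 4 h against 3 h 285 (148 and 51, and 140 with only 2 times).

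Centring on 75 ribosomal protein genes put the median difference of all probe sets at -1.11, -1.32 and -1.24 at 2 h against 1 h, 2 h against 0 h and 4 h against 0 h, and centring on hybridisation controls put it at 0.38, -0.71 and -0.86, beside -0.07, 0.02 and 0.09 as deposited. Higher calls made up 64.9%, 46.0% and 42.6% of calls there, against 3.4%, 3.3% and 2.8% with ribosomal protein genes and 83.0%, 21.9% and 11.6% with hybridisation controls. At 1 h against 0 h the share was 35.1%, against 16.5% and 6.4%. At 3 h against 2 h it was 30.2%, against 42.2% and 7.9%, and at 4 h against 3 h 45.3%, against 31.6% and 72.5%. Among differences called before or after centring, the sign turned with ribosomal protein genes for lag-2 (-0.88 at 2 h against 1 h, -0.81 at 2 h against 0 h, -1.25 at 4 h against 0 h), hlh-28 and hlh-29 (-1.31 at 2 h against 0 h), and at 4 h against 0 h for hlh-26 (-1.32), the dimmer apx-1 probe set (-1.30), dsl-2 (-0.08) and sel-9 (-0.61). With hybridisation controls it turned among these for lag-2 at 2 h against 0 h (-0.21), sel-9 at 4 h against 0 h (-0.23) and tbx-39 at 1 h against 0 h (-0.53). Among differences called under neither, 5 more turned with ribosomal protein genes, 19 with hybridisation controls and 6 with median centring, among them hlh-26 (-0.19 and -1.07) and lag-2 (-0.82, hybridisation controls) at 1 h against 0 h.

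The replicate letters showed no clear pairing of the arrays. Deviations from the time means correlated over 0.1 in 7 of 30 same-letter pairs (mean -0.003, range -0.308 to 0.339), and 7 of 15 arrays correlated best with their own letter. With 3 arrays per time this check cannot exclude pairing. With the replicate block lag-2 kept its 0.52 at 2 h against 0 h with adjusted p = 0.051, lag-1 at 4 h against 0 h reached adjusted p = 0.046, and puf-7 at 1 h against 0 h had -2.53 with adjusted p = 0.05. The causes of these changes were not tested.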
